A study of Mus musculus with 8 samples.

Results

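The 36 genes described here encode proteins of the postsynaptic density and of adhesion across the synaptic cleft. They were taken by symbol from a list of scaffold, kinase, cytoskeletal and adhesion genes, and all 36 symbols were found among the 54532 genes of the deposited table. That table gives FPKM, the fragments counted for a gene divided by its length and by a constant of the library. Hippocampal tissue of adult mice was sequenced in 8 libraries, 4 from wild-type mice (WT) and 4 from mice heterozygous for Kat6a (Kat6a+/-), a gene whose product acetylates histones and belongs to the MYST family. The comparison asks whether transcripts of these synaptic genes differ between the genotypes. The labels give no age beyond adult, and no sex, strain, litter, batch or further description of the Kat6a allele. Separate animals are not stated for the libraries, so p-values measure only the spread between these libraries, which may be technical.

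The postsynaptic density is the protein layer beneath the membrane of excitatory synapses on dendritic spines. Scaffolds of the PSD-95 family hold glutamate receptors and bind GKAP proteins (Dlgap genes), which bind Shank proteins, which in turn bind Homer proteins and the actin cytoskeleton. CaMKII, a kinase switched on by calcium-loaded calmodulin, is abundant there and is needed for long-term potentiation in the hippocampus. Neurexins on the presynaptic side meet neuroligins and LRRTM proteins on the postsynaptic side, and gephyrin takes the part of the scaffold at inhibitory synapses.

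The libraries held 16462428 to 27875310 reads counted to genes, and 14159 genes whose mean reached 0.5 FPKM were tested. Reads that were sequenced but not counted to a gene are not included. Kat6a measured 9.35, 8.97, 8.55 and 9.71 FPKM for WT and 6.06, 7.64, 7.32 and 7.06 FPKM for Kat6a+/-, so each library matched its label without overlap (exact two-sided permutation p = 0.0286, the smallest that 70 assignments allow). Markers of glutamatergic neurons and of the dentate, CA1 and CA3 fields were all detected, with Slc17a7, the vesicular glutamate transporter of these neurons, between 294 and 346 FPKM. WT replicate 1 stood apart in several marker lists. Its mean deviation on the log2 scale was the lowest of the 8 libraries for oligodendrocyte (-0.36), choroid plexus (-0.47), CA3 (-0.24), CA1 (-0.12) and glutamatergic neuron markers (-0.10), and the highest for astrocyte (0.18) and microglia markers (0.11). For choroid plexus markers, however, Kat6a+/- replicate 2 lay furthest out, with a mean deviation of 1.10. Ttr reached 119 FPKM there, while every remaining library held between 7.61 and 20.5 FPKM. Deviations are taken from a mean that includes this library. WT replicates 2 and 4 and Kat6a+/- replicate 1 were also low for these markers, each at -0.31. In tissue of many cell types, fewer cells of a type and less RNA per cell cannot be told apart.

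All 36 genes were expressed above the level needed for testing, and none passed the test of a difference between the genotypes. Levels ran from 988 FPKM for Nrgn, which ranked 13 of 14159 genes, to 1.62 FPKM for Camk2d (means over the 8 libraries), and the fewest reads behind any value were 222, for Lrrtm3. In limma 0 of the 36 genes passed an adjusted p of 0.05 over all genes, the same as the background of 0% (0 of 14159 genes). Kat6a itself, at 76.7% of WT, was not called either (limma, unadjusted p = 0.00051, adjusted p = 0.9998). The adjusted test did not call a difference of that size, so 0 of 36 called does not show that the genes are unchanged. At an unadjusted p under 0.05 there were 0 of 36 genes higher, beside 1.78% of all tested genes, and 0 of 36 lower, beside 2.63%. The 4 heterozygote values lay wholly above the 4 WT values in 0 of 36 genes, beside 1.09% of all genes, and wholly below them in 0 of 36, beside 1.53%. Counting tests on the reads behind the FPKM values called 0 of the 36 genes after adjustment. At an unadjusted p under 0.05, edgeR had 1 of 36 genes (Camk2d; background 4.35%), DESeq2 0 of 36 (3.3%) and limma-voom 0 of 36 (4.24%).

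**Figure D1:**
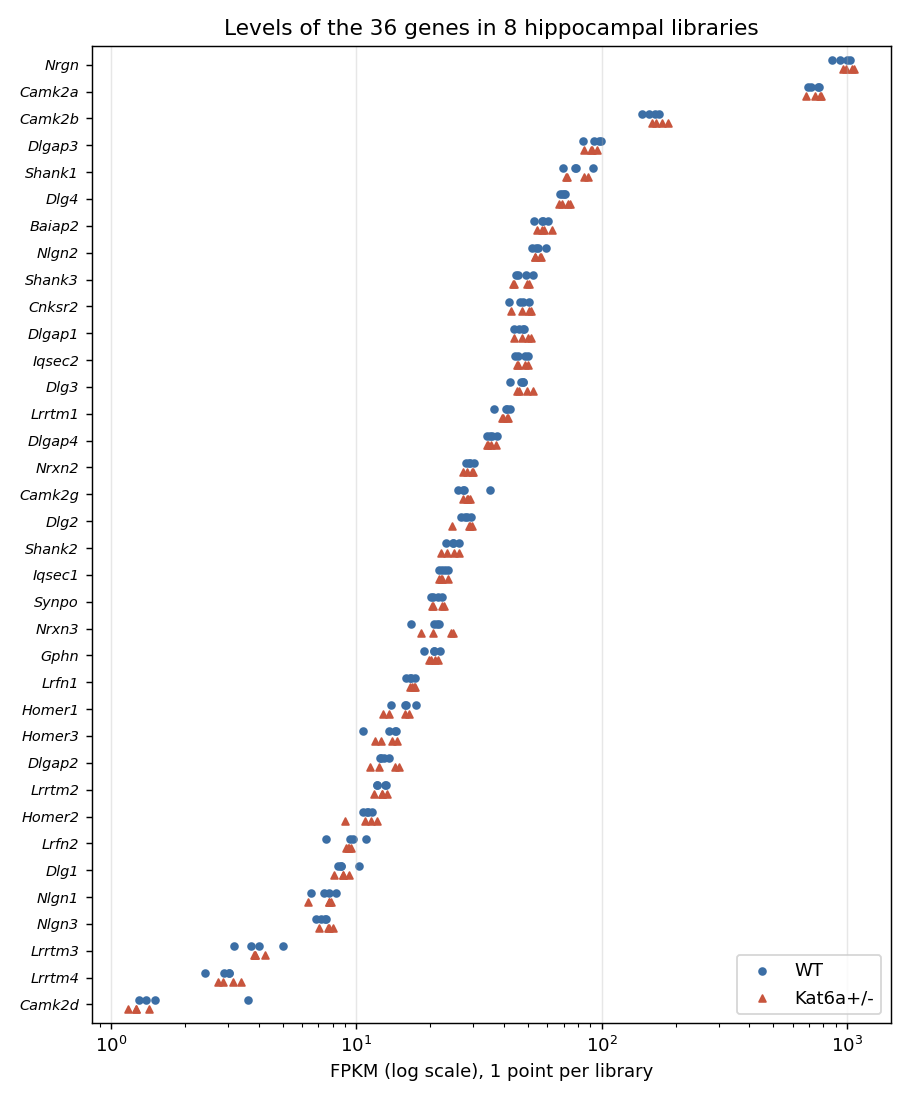
FPKM of each of the 36 genes in each of the 8 libraries on a log scale, with WT as circles and Kat6a+/- as triangles and genes ordered by mean. The symbols of the genotypes overlap in all 36 genes, and 1 WT library stands well above the other 7 for Camk2d.

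The differences were small as well as not called. Of the 36 genes 20 were higher and 16 lower in Kat6a+/-, with a median log2 fold change of 0.0033, beside 0.0010 over all tested genes. This split rested on single libraries. It was 28 against 8 without Kat6a+/- replicate 1, 27 against 9 without WT replicate 4 and 13 against 23 without Kat6a+/- replicate 4. The median size of a change, whatever its sign, was 0.027 for the 36 genes and 0.052 for all genes. A change between -0.15 and 0.15 was measured for 35 of the 36 genes. Small changes were common over all genes too. A size below 0.1 was measured for 32 of the 36 genes and for 74.5% of all tested genes. The 95% interval of the fold change lay within 1.2-fold of WT in either direction for 32 of 36 genes, where 60.1% of all tested genes met this, and within 1.5-fold for 35 of 36, where 92.2% did. These interval counts were chosen after the data were seen, and more abundant genes have narrower intervals. Among the 10955 tested genes within the range of levels of the 36, 74.6% had intervals within 1.2-fold. That range is wide, from 1.62 to 988 FPKM. These genes are therefore not matched to the 36 by level, and the shares cannot be compared free of it. The exceptions among the 36 genes at 1.2-fold were Camk2d, Homer1, Lrrtm4 and Nrxn3.

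**Figure D2:**
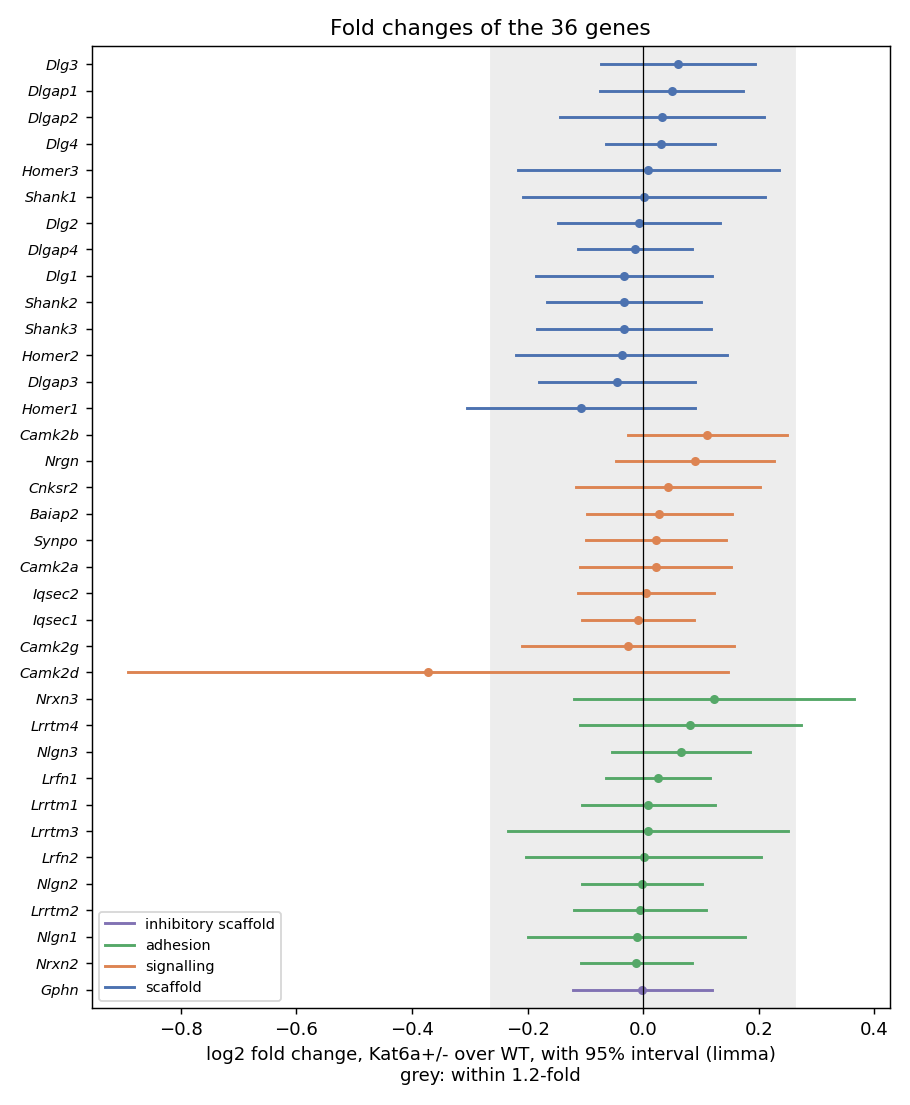
Log2 fold change of Kat6a+/- over WT for the 36 genes (points) with the 95% interval from limma (lines), coloured by role, on the log2(FPKM + 0.5) scale. Every interval includes 0, and the grey band marks changes within 1.2-fold, which holds the whole interval of 32 genes.

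Among the scaffolds, the PSD-95 family had log2 fold changes from -0.033 (Dlg1) to 0.060 (Dlg3). Dlg4, which encodes PSD-95 itself, measured 69.1, 70.6, 67.3 and 70.2 FPKM for WT and 68.95, 67.2, 72.7 and 74.4 FPKM for Kat6a+/-. The highest values and the lowest value were all heterozygote libraries, and the groups overlapped. The log2 fold change was 0.030 ± 0.042 (SE), and its 95% interval ran from 0.956 to 1.09 times WT (both on the log2(FPKM + 0.5) scale, as are all fold changes here). The gene lies at chr11:70016942-70047522 on the plus strand of GRCm38. Dlg3 (SAP102) measured 46.2 ± 2.52 FPKM for WT and 48.2 ± 3.47 FPKM for Kat6a+/-, and Dlg2 (PSD-93) 28.05 ± 1.14 FPKM and 27.98 ± 2.34 FPKM (mean ± SD, n = 4 each, here and below). Dlg1 (SAP97) was the least abundant of the 4 at 8.99 ± 0.838 FPKM and 8.76 ± 0.498 FPKM. Dlg4 made up 45.4% ± 0.539 of the summed FPKM of the family in WT and 45.5% ± 0.975 in Kat6a+/-, followed by Dlg3 at 30.3% and 30.9%.

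The GKAP family, the layer between PSD-95 and Shank, was led by Dlgap3 at 93.3 ± 7.02 FPKM for WT and 90.3 ± 4.47 FPKM for Kat6a+/-. It made up 49.5% ± 1.70 and 48.3% ± 1.22 of the family's FPKM. Dlgap1 measured 46.5 ± 1.99 FPKM and 48.2 ± 3.29 FPKM, Dlgap4 35.6 ± 1.47 FPKM and 35.2 ± 1.28 FPKM, and Dlgap2 12.9 ± 0.486 FPKM and 13.3 ± 1.64 FPKM. Log2 fold changes in this family ran from -0.045 for Dlgap3 to 0.049 for Dlgap1, and all 4 intervals lay within 1.2-fold.

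The Shank genes, whose proteins link GKAP to Homer and actin, were high and low in much the same libraries. Shank1 measured 78.5, 77.5, 69.4 and 91.8 FPKM for WT and 71.8, 72.4, 88.3 and 84.9 FPKM for Kat6a+/-. Shank2 measured 24.7, 24.7, 23.1 and 26.3 FPKM for WT and 22.1, 23.4, 26.1 and 25.0 FPKM for Kat6a+/-. Shank3, the Phelan-McDermid syndrome gene in humans, measured 45.8, 49.2, 44.5 and 52.3 FPKM for WT and 43.4, 44.1, 49.6 and 50.4 FPKM for Kat6a+/-. In all 3 genes WT replicate 4 was the highest library, WT replicate 3 the lowest of WT, and Kat6a+/- replicates 1 and 2 lay below replicates 3 and 4. The means were 100.1%, 97.8% and 97.7% of WT for Shank1, Shank2 and Shank3, with log2 fold changes of 0.0018 ± 0.093, -0.033 ± 0.060 and -0.033 ± 0.067 (SE). Shank1 made up 52.1% ± 1.46 of the FPKM of the 3 genes in WT and 52.7% ± 0.895 in Kat6a+/-.

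Homer1, whose protein ties Shank to metabotropic glutamate receptors, had the largest difference of the scaffolds. It measured 13.9, 15.8, 16 and 17.5 FPKM for WT and 12.9, 13.6, 16.3 and 15.8 FPKM for Kat6a+/-. The lowest values were Kat6a+/- replicates 1 and 2, WT replicate 1 came next, and the groups overlapped. The heterozygote mean was 92.7% of WT, at a log2 fold change of -0.11 ± 0.089 (SE) with a 95% interval from -0.31 to 0.091 (limma, adjusted p = 0.9998). The FPKM of Homer1 counts its long isoforms and the short activity-induced Homer1a together. Homer2 measured 11.1 ± 0.391 FPKM for WT and 10.9 ± 1.37 FPKM for Kat6a+/-, and Homer3 13.3 ± 1.81 FPKM and 13.3 ± 1.25 FPKM. Of the exon bases of Homer3, 25.4% are shared with Ddx49 on the opposite strand, which measured 5.06 FPKM. The sources used here do not say whether counting used the strand, so reads of the pair cannot be told apart there.

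CaMKII transcripts held the largest and the smallest levels of the kinases and scaffolds. Camk2a, the main forebrain subunit, measured 710.4, 763, 696 and 770.3 FPKM for WT and 679, 743, 778 and 787 FPKM for Kat6a+/-. Camk2b, the actin-binding subunit, measured 146, 170.5, 157 and 165 FPKM for WT and 161, 166, 176 and 186 FPKM for Kat6a+/-. For Camk2a the groups overlapped over most of their range, with the lowest and the highest library both heterozygote. For Camk2b the top pair were Kat6a+/- replicates 3 and 4 and the bottom pair WT replicates 1 and 3. Camk2a had a log2 fold change of 0.022 ± 0.059 (SE). Camk2b had the smallest unadjusted p of the 36 genes (0.101), at a log2 fold change of 0.11 ± 0.061 (SE), a 95% interval from 0.982 to 1.19 times WT and an adjusted p of 0.9998 in limma. Without WT replicate 1 the log2 fold change of Camk2b was 0.069.

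Camk2g, a broadly expressed subunit, measured 34.9, 27.5, 26.0 and 27.3 FPKM for WT and 29.0, 28.6, 28.2 and 27.1 FPKM for Kat6a+/-. Camk2d, the subunit best known from heart muscle, measured 3.61, 1.51, 1.39 and 1.30 FPKM for WT and 1.26, 1.17, 1.43 and 1.26 FPKM for Kat6a+/-. In both genes WT replicate 1 was the highest of the 8 libraries, and without it the WT values lay among or next to those of the heterozygotes. Camk2d had the largest fold change of the 36 genes, -0.37 ± 0.23 (SE) on the log2 scale with a 95% interval from -0.89 to 0.15. Its exact two-sided permutation p was 0.0857. Its coefficient of variation, the SD as a share of the mean, was 56.9% in WT and 8.36% in Kat6a+/-. Without WT replicate 1 the log2 fold change of Camk2d was -0.093. Camk2d lies at chr3:126596302-126846326 on the plus strand and Camk2b at chr11:5969644-6066362 on the minus strand. The unadjusted p for Camk2d was 0.0242 in edgeR, 0.141 in limma and 0.10 in DESeq2. The high Camk2d value came from the library that was also highest in astrocyte and microglia markers and lowest in oligodendrocyte and pyramidal cell markers. It was highest too in Rora (5.17 FPKM against 2.93 to 3.60 FPKM), a thalamic marker picked after its values were seen. The 6 thalamic markers summed to 25.0 FPKM in that library, within the 18.7 to 26.8 FPKM of the other 7, and Tcf7l2 (0.430 FPKM) and Prkcd (4.37 FPKM) were not raised there. For striatal markers its mean deviation was the highest of the 8 libraries (0.12), next to 0.10 in Kat6a+/- replicate 4. Their sum there, 25.9 FPKM, lay within the 23.6 to 27.5 FPKM of the other libraries. None of these markers was at 0 over the 8 libraries. The part of other tissue or of the mix of cell types in this value was not tested.

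**Figure D3:**
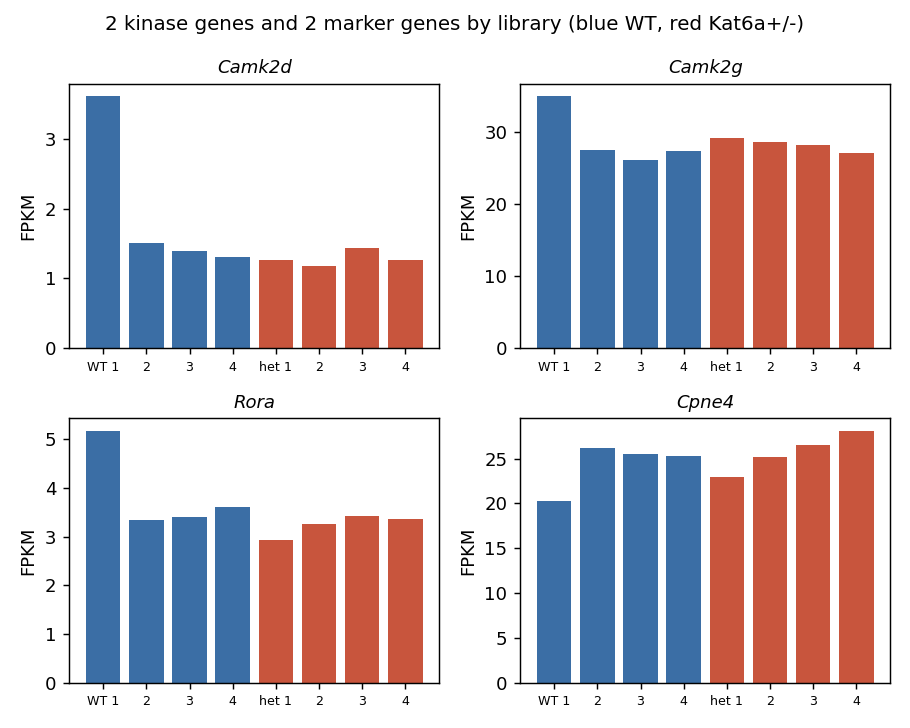
FPKM of Camk2d, Camk2g and the marker genes Rora and Cpne4 in each library, WT in blue and Kat6a+/- in red, with axes that start at 0. WT replicate 1 is the highest bar for Camk2d, Camk2g and Rora and the lowest for the CA3 marker Cpne4.

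The 4 CaMKII genes have similar coding sequences, so their separation by reads was examined. The coding sequences were 77.5% to 81.1% identical over aligned bases, and the longest stretch shared exactly by a pair was 32 bases (Camk2a and Camk2b). The read length is not given in the sources used here. A stretch of 60 coding bases of the kinase domain is printed for Camk2b, Camk2d and Camk2g because it holds the longest exact match of Camk2b and Camk2g, 29 bases. The sequences are spliced, from GENCODE M21 on GRCm38, and lie within chr11:5992874-5997923 (minus strand), chr3:126767539-126770803 (plus strand) and chr14:20766207-20770104 (minus strand), each interval including intron sequence. Capitals mark bases that differ from Camk2b.
Camk2b: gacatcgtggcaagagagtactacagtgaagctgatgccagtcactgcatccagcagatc
Camk2d: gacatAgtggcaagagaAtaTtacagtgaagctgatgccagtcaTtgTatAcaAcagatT
Camk2g: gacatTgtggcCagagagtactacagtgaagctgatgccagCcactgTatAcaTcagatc
In this stretch Camk2d differed from Camk2b at 8 of 60 bases and Camk2g at 6 of 60, and the differences lie on both sides of a shared core.

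Per length, Camk2a made up 79.4% ± 0.361 of CaMKII FPKM for WT and 78.7% ± 0.528 in Kat6a+/-, and Camk2b 17.2% ± 0.699 and 18.2% ± 0.447. Camk2g supplied 3.14% ± 0.512 and 2.99% ± 0.271, and Camk2d 0.213% ± 0.127 and 0.135% ± 0.0113. The share of Camk2d depends on the length by which the authors divided. Their length for Camk2d, 22493 bases, covers the exons of all 28 annotated transcripts, 12 of them with a retained intron, whereas the exons of its coding transcripts cover 8524 bases. With the coding-transcript length of each of the 4 genes, Camk2d made up 0.389% ± 0.233 in WT and 0.246% ± 0.0204 in Kat6a+/-, and Camk2a 71.5% ± 0.458 and 70.6% ± 0.641. All reads of each gene were kept, also those in exons of its other transcripts. These shares are therefore not those of the coding transcripts alone and can overstate Camk2d. The order of the 4 genes was the same by either length.

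**Figure D4:**
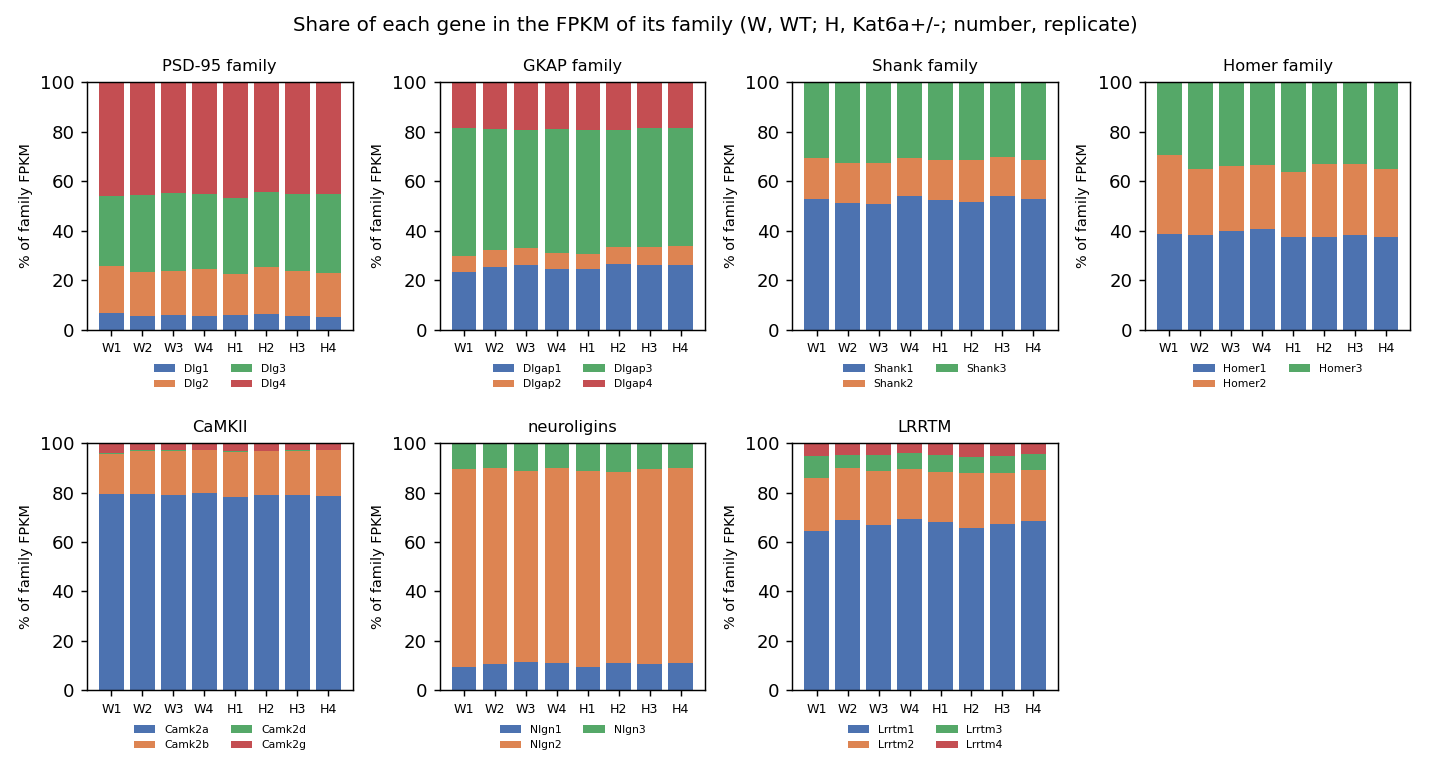
Share of each gene in the summed FPKM of its family, in percent, for 7 families, with 1 stacked bar per library (W, WT; H, Kat6a+/-). The leading gene of each family (Dlg4, Dlgap3, Shank1, Homer1, Camk2a, Nlgn2 and Lrrtm1) is the same in all 8 libraries.

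Neurogranin (Nrgn), which binds calmodulin at low calcium and so sets how much of it reaches CaMKII, was the most abundant of the 36 genes. It measured 872, 1027, 996.9 and 935.6 FPKM for WT and 1069.6, 960.1, 990.5 and 1052 FPKM for Kat6a+/-. WT replicate 1 was the lowest library and Kat6a+/- replicates 1 and 4 the highest, with overlap between the groups. The log2 fold change was 0.089 ± 0.061 (SE), and the heterozygote mean was 106% of WT (limma, adjusted p = 0.9998). Without WT replicate 1 the log2 fold change of Nrgn was 0.045. The remaining signalling and cytoskeletal genes stayed closer to WT. Baiap2 (IRSp53, a linker to actin), Synpo (synaptopodin of the spine apparatus), Cnksr2 (a scaffold of Ras signalling) and the Arf exchange factors Iqsec1 and Iqsec2 had log2 fold changes from -0.0087 (Iqsec1) to 0.043 (Cnksr2). Their levels ran from 21.3 FPKM for Synpo to 57.6 FPKM for Baiap2, as means over the 8 libraries.

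On the adhesion side, neuroligins were led by Nlgn2, the form of inhibitory synapses. Nlgn2 measured 55, 54.1, 51.8 and 59.1 FPKM for WT and 53.7, 53.4, 56.6 and 55.9 FPKM for Kat6a+/-. All 4 heterozygote values lay inside the WT range, and the log2 fold change was -0.0019 ± 0.047 (SE). Nlgn1, the form of excitatory synapses, measured 6.54, 7.37, 7.74 and 8.29 FPKM for WT and 6.36, 7.72, 7.77 and 7.84 FPKM for Kat6a+/-. Replicate 1 was the lowest library of each genotype, and the groups overlapped. The log2 fold change was -0.011 ± 0.084 (SE). Nlgn3, found at both kinds of synapse, measured 7.26 ± 0.314 FPKM for WT and 7.62 ± 0.412 FPKM for Kat6a+/-. Nlgn2 made up 78.9% ± 1.15 and 78.5% ± 0.858 of neuroligin FPKM. Of the exon bases of Nlgn3, 41.2% also belong to the model gene Gm21986 on the same strand, which measured 0.0549 FPKM. How reads in shared bases were counted is not given in the sources used here. The levels of both genes and the neuroligin shares carry this limit.

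Of the neurexins, the presynaptic partners of neuroligins and LRRTM proteins, Nrxn3 had the larger spread. It measured 16.8, 21.2, 20.7 and 21.8 FPKM for WT and 18.3, 20.5, 24.3 and 24.7 FPKM for Kat6a+/-. Kat6a+/- replicates 3 and 4 were above every WT library, Kat6a+/- replicate 1 was below all but WT replicate 1, and the groups overlapped. Its coefficient of variation within Kat6a+/-, 14%, was the highest of the 36 genes. The log2 fold change was 0.12 ± 0.11 (SE), the highest of the 36, with a 95% interval from 0.920 to 1.29 times WT (limma, adjusted p = 0.9998). Without WT replicate 1, the lowest library for Nrxn3, it was 0.039 and no longer the highest of the 36. Nrxn2 measured 29.0 ± 0.924 FPKM for WT and 28.7 ± 1.14 FPKM for Kat6a+/-, an interval from 0.928 to 1.06 times WT. Nrxn3 spans chr12:88722876-90334935 on the plus strand. The FPKM of a neurexin gene counts its long and short promoter forms together.

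LRRTM genes, which encode leucine-rich repeat ligands of neurexins, were led by Lrrtm1 at 40.1 ± 2.64 FPKM for WT and 40.3 ± 1.16 FPKM for Kat6a+/-. Lrrtm2 measured 12.7 ± 0.553 FPKM and 12.6 ± 0.642 FPKM, and Lrrtm3 3.97 ± 0.778 FPKM and 3.95 ± 0.184 FPKM. Lrrtm4, which serves excitatory synapses of dentate granule cells, measured 2.84 ± 0.294 FPKM and 3.03 ± 0.296 FPKM, at a log2 fold change of 0.082 ± 0.085 (SE). Of its exon bases 25.1% are shared with Gm4409 on the opposite strand, which measured 0.0031 FPKM. The SALM genes Lrfn1 and Lrfn2, adhesion proteins that bind PSD-95, measured 16.6 ± 0.537 and 9.38 ± 1.39 FPKM for WT and 16.9 ± 0.357 and 9.32 ± 0.195 FPKM for Kat6a+/-. Lrfn1 had the narrowest interval of the 36 genes, from 0.957 to 1.08 times WT.

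Gephyrin (Gphn), the scaffold that holds glycine receptors and GABA-A receptors, was level between the genotypes. It measured 18.8, 20.8, 22.0 and 20.8 FPKM for WT and 19.7, 20.9, 21.6 and 20.1 FPKM for Kat6a+/-. All 4 heterozygote values lay inside the WT range, and the log2 fold change was -0.0014 ± 0.054 (SE), or 0.920 to 1.09 times WT. Beside this, all 7 interneuron markers had lower means in Kat6a+/-, where 6990 of all 14159 tested genes were lower, with a summed level of 344 to 402 FPKM for WT and 323 to 352 FPKM for Kat6a+/-. Lhx6, a transcription factor of interneurons, did not overlap between the genotypes, at 3.99 to 4.30 FPKM in the WT libraries and 3.14 to 3.39 FPKM in the others (unadjusted p = 0.00016 in limma), and Sst, which encodes somatostatin, had an unadjusted p of 0.047. None of the 7 interneuron markers passed the adjusted threshold in limma, and none was at 0 over the 8 libraries. Other marker lists leaned in a single direction as well. All 6 oligodendrocyte markers had higher means in Kat6a+/-. The astrocyte markers other than Gfap had lower means, and the list summed to 487 to 557 FPKM for WT and 461 to 510 FPKM for Kat6a+/-. Markers of the same cell type are not independent of each other. The part of interneuron markers in the inhibitory genes was not tested.

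Libraries of the same genotype differed in how many of the 36 genes lay above their own means. The count was 11, 24, 11 and 27 in WT and 4, 12, 32 and 26 in Kat6a+/-. After subtraction of each gene's own average, the mean log2 value over the 36 genes was -0.020, 0.0087, -0.035 and 0.042 in WT and -0.078, -0.031, 0.065 and 0.047 in Kat6a+/-. With libraries scaled to a common protein-coding sum it was -0.0018, -0.00014, -0.052 and 0.040 in WT and -0.061, -0.015, 0.063 and 0.027 in Kat6a+/-. On the first scale the spread among the heterozygote libraries (SD 0.067) and among WT (SD 0.034) was wider than the difference between the genotype means (0.0019). The mean of WT replicate 1 includes Camk2d at 1.02 above its own average. The median deviation of the 36 genes there was -0.047, so the size of the genotype difference rests in part on that value. Single genes went against their library. Nrgn was at its highest, 0.12 above its mean, in Kat6a+/- replicate 1, and Camk2d and Camk2g were at theirs in WT replicate 1. The median deviation of all 14159 tested genes was between -0.0052 and 0.0053 in every library. Kat6a+/- replicate 1 also had the most reads counted to genes and the highest oligodendrocyte marker deviation (0.26). The part of either in its low values was not tested. WT replicate 1 was the lowest library for 11 of the 36 genes and the highest for 4.

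**Figure D5:**
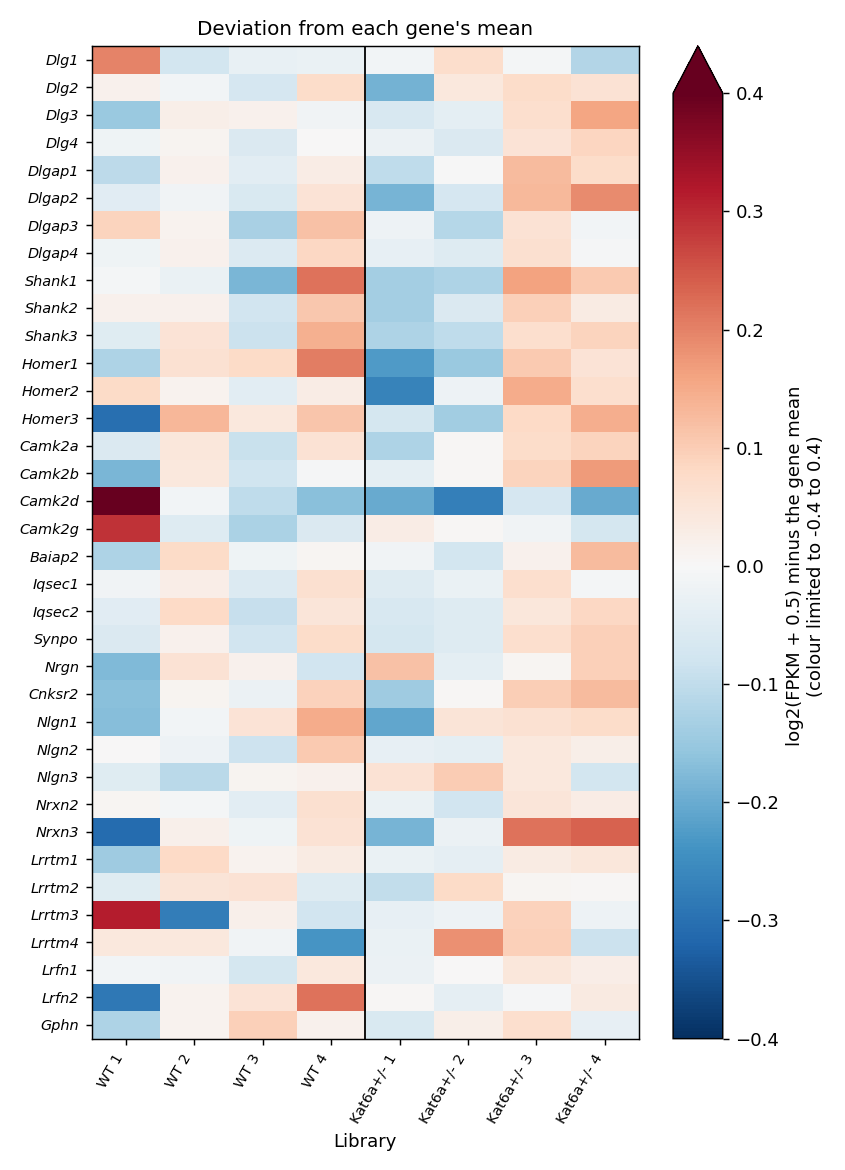
Deviation of each of the 36 genes from its own mean over the 8 libraries, on the log2(FPKM + 0.5) scale, with red above and blue below the mean and the line between WT and Kat6a+/-. The columns of Kat6a+/- replicate 1 (mostly blue) and replicate 3 (mostly red) differ more than the genotypes do.

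Ratios between partners within a library, which do not depend on library scaling, were compared for 7 pairs with exact two-sided permutation tests on log2(FPKM + 0.5). The ratio of Camk2a to Camk2b was 4.88, 4.48, 4.44 and 4.67 in WT and 4.22, 4.48, 4.43 and 4.23 in Kat6a+/-. All 4 heterozygote ratios lay below the WT median, and the groups overlapped through Kat6a+/- replicate 2. The means were 4.62 ± 0.200 and 4.34 ± 0.133 (exact permutation p = 0.0857, adjusted over the 7 ratios 0.4). The ratio of Homer1 to Homer3 was 1.31, 1.09, 1.18 and 1.23 in WT and 1.03, 1.14, 1.17 and 1.08 in Kat6a+/-. Here too all 4 heterozygote ratios lay below the WT median, with overlap at WT replicate 2, and the means were 1.2 ± 0.0905 and 1.10 ± 0.0633 (exact permutation p = 0.114, adjusted 0.4). The other 5 ratios gave exact permutation p values from 0.543 to 0.914. The ratio of Gphn to Dlg4, inhibitory over excitatory scaffold, was 0.298 ± 0.0223 in WT and 0.291 ± 0.0172 in Kat6a+/-. That of Nlgn2 to Nlgn1 was 7.39 ± 0.724 and 7.44 ± 0.680, that of Nrgn to Camk2a 1.31 ± 0.103 and 1.37 ± 0.140, that of Dlg4 to Dlg2 2.47 ± 0.0743 and 2.54 ± 0.203, and that of Shank1 to Shank2 3.20 ± 0.205 and 3.28 ± 0.142.

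A further list of 85 postsynaptic and adhesion genes outside the 36 held no called gene either. Of 83 tested, 57 were higher and 26 lower in Kat6a+/-, with a median log2 fold change of 0.022. Over all tested genes 7169 were higher and 6990 lower, with a median of 0.0010. The split of the wider list was not recounted with single libraries left out, which moved that of the 36 genes. In limma 0 of the 83 passed either after adjustment or at an unadjusted p under 0.05. With limma-voom, edgeR and DESeq2 on the reads, 3, 5 and 5 of them had an unadjusted p under 0.05, beside 4.24%, 4.35% and 3.3% of all tested genes. The smallest p values among the higher genes belonged to Dbn1, Ephb1 and Flrt2. Dbn1 (drebrin, an actin-binding spine protein) measured 57.3 ± 2.15 FPKM for WT and 60.9 ± 1.24 FPKM for Kat6a+/-. Ephb1, an ephrin receptor, measured 6.53 ± 0.649 FPKM and 7.73 ± 1.24 FPKM, and Flrt2, a ligand of latrophilins, 7.14 ± 0.502 FPKM and 7.95 ± 0.740 FPKM. Among the lower genes they belonged to Camk2n2, Lin7a and Cit. Camk2n2, an inhibitor of CaMKII, measured 67.9, 48.9, 49.1 and 51.8 FPKM for WT and 50.9, 47.5, 46.7 and 42.5 FPKM for Kat6a+/-. Cit (citron kinase, whose neuronal form binds PSD-95) measured 5.10, 3.12, 3.26 and 3.29 FPKM for WT and 3.12, 2.94, 3.36 and 2.68 FPKM for Kat6a+/-. WT replicate 1 was the highest library for both, as it was for Camk2d and Camk2g. Lin7a, a small scaffold of the CASK complex, measured 6.40 ± 0.547 FPKM and 5.75 ± 0.637 FPKM.

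Further properties of the 36 genes were read from the annotation. The coordinates and lengths of 35 of them in the deposited table equal those of GENCODE M21 on GRCm38, the exception being Lrrtm2. In the authors' deposited table of compared genes, which holds 605 of the 54532 genes with an unadjusted p up to 0.04997, 0 of the 36 genes appear. As the 36 genes were chosen with earlier results of these data known, this is a description. For scale, 3.3% of the 14159 tested genes had an unadjusted p under 0.05 with DESeq2 here. At such a share, 0 of 36 says little about these genes. Over 35 pairs of paralogs within families, coding sequences were 65.2% to 81.1% identical, and the longest exact match of a pair was 11 to 32 bases.

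RefSeq promoter windows, 300 bases each on GRCm38.p6, were matched by symbol for 25 of the 36 genes (43 windows). Their median GC content was 57.7%, beside 52.7% over all 32851 windows. The GC box GGGCGG, searched on both strands, was in 48.8% of the 43 windows and in 35.7% of all windows. The motif TGACG of cAMP response elements was in 16.3% against 20.8%, and TATAAA in 11.6% against 13.6%, both searched on both strands. These shares are descriptions, and 1 gene can have several windows. The windows of Nrgn, the most abundant of the 36 genes, and Camk2d, the least abundant, are printed to show both ends of the range. They lie at chr9:37552696-37552995 (minus strand) and chr3:126596701-126597000 (plus strand), 5′ to 3′, with matches to the GC box on either strand in capitals.
Nrgn: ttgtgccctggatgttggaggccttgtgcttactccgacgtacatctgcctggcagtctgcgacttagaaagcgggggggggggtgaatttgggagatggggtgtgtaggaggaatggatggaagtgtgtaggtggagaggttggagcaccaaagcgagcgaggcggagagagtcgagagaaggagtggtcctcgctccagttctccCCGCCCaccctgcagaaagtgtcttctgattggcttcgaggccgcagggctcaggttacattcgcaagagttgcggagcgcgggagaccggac
Camk2d: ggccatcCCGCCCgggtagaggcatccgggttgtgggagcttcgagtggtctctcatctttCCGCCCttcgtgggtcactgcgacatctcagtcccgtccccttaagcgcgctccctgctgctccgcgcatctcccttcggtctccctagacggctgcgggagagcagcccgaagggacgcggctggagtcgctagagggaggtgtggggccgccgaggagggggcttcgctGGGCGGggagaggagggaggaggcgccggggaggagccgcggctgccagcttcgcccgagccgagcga
The window of Nrgn held 1 match and that of Camk2d 3, and neither held TGACG or TATAAA. Neither a match nor its absence says anything here about the binding of a factor.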

How the data were processed

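Trizol extraction, a DNase step and the NEBNext Ultra II kit gave the libraries, per the labels' protocols. STAR 2.5, HTSeq and DESeq2 were used on GRCm38, per the submitters' processing notes; their roles, the annotation release, strand setting and read length were not given in the sources used here. The deposited FPKM table covers 54532 genes, with the authors' gene length and coordinates. A second deposited table holds 605 genes of the authors' comparison, with read counts, a size-factor-scaled signal, FPKM, the authors' log2 fold change and the authors' p-values, per the file headers. FPKM times gene length times 1 constant per library gave whole reads for 100% of values within 0.01, and these equalled the deposited counts for 605 of 605 genes in every library. The implied size factors ran from 0.833 to 1.45, so FPKM is scaled between libraries already and not to each library's own total.

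The main test was limma 3.58.1 (R 4.3.3, moderated with a trend) on log2(FPKM + 0.5) for genes whose mean reached 0.5 FPKM, genotype as the one term, two-sided, with Benjamini-Hochberg adjustment over all 14159 tested genes at a threshold of 0.05. Fold changes on this scale understate those of low genes. edgeR 4.0.16 (quasi-likelihood), DESeq2 1.42.0 and limma-voom were run on the recovered reads as alternatives. Other alternatives changed the pseudocount (0.1 and 1), the filter, the library scaling and the replicate block, and left out each library. Ratios and single genes were compared by exact permutation over all 70 assignments. Values in every library are given for a list of central members, for any called member and for the members with the highest variation in each genotype; from the wider list, at most 3 in each direction are named, by smallest p, and Cit and Camk2n2 are given by library because 1 library stood out. Of the 85 genes of that list, 84 were found by symbol. The 36 genes and the lists were chosen with earlier results of these data known. Some genes of the marker lists are not reported here.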

Additional observations from a re-analysis of the deposited data

Results flagged for a closer look

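Among 86 groups of 4 library values searched, 6 held a library whose gap to the nearest other was beyond Dixon's critical share of the group's range, where about 1 in 20 groups, or 4.3, would be flagged by chance. In WT replicate 1, Camk2d measured 3.61 FPKM against 1.30 to 1.51 FPKM elsewhere in WT, Camk2g 34.9 FPKM against 26.0 to 27.5 FPKM, and Dlg1 10.2 FPKM against 8.39 to 8.68 FPKM. In Kat6a+/- replicate 1, Dlg2 measured 24.5 FPKM against 28.8 to 29.5 FPKM elsewhere in Kat6a+/-, and Nlgn1 6.36 FPKM against 7.72 to 7.84 FPKM. In Kat6a+/- replicate 3, Lrrtm3 measured 4.22 FPKM against 3.83 to 3.87 FPKM, a narrow range in which the gap is small. WT replicate 1 was also the highest of the 8 libraries in astrocyte markers (mean deviation 0.18 on the log2 scale) and the lowest in oligodendrocyte markers (-0.36), and the part of cell types in its values was not tested.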

How the results depend on the processing

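The count of the 36 genes called after adjustment was 0 in all 17 alternatives. At an unadjusted p under 0.05 it was 0 except with edgeR, which gave 1 (Camk2d), and 0 to 0 when leaving out each library. The median log2 fold change of the 36 genes ran from -0.013 to 0.036, both ends when a library was left out. Of the wider list, 0 genes had an unadjusted p under 0.05 in limma, against 1 with no filter, 1 with scaling to a common protein-coding sum, 3 with limma-voom, 5 with edgeR and 5 with DESeq2, and 0 to 4 when leaving out each library (4 without Kat6a+/- replicate 1); 0 were called in any of the 17. The cause was not tested. Camk2d ran from -0.62 (edgeR) to -0.093 (without WT replicate 1), and the Camk2a to Camk2b log2 ratio from -0.11 to -0.063. With the replicate number as a block, 0 of the 36 genes were called, their median stayed at 0.0033, and 4 genes of the wider list had an unadjusted p under 0.05. With the block, 770 of all tested genes had an unadjusted p under 0.05 in limma, against 624 without it. Same-numbered libraries, from 1 to 4, correlated at 0.166, -0.0749, 0.0652 and 0.00507 over all tested genes. There 1 of 4 WT libraries correlated best with its own number. Over the 36 genes the correlations were 0.285, -0.171, -0.307 and 0.531. The labels do not say whether the numbers pair the libraries, and these values do not decide it.

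With 4 libraries per genotype, the widest intervals of the 36 genes were those of Camk2d (0.539 to 1.11 times WT), Lrrtm3 and Nrxn3. Intervals cover the spread between libraries only. FPKM per gene joins all isoforms, so a switch between Homer1 or neurexin isoforms would not appear here. For 16 of the 36 genes some exon bases belong to another gene.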
